A study of Mus musculus with 6 samples.

Results

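The neural stem and radial glia markers described here were 10 genes, Nes, Sox2, Sox1, Vim, Fabp7, Slc1a3, Msi1, Prom1, Sox9 and Hopx, chosen by name and matched by symbol to 10 of 50686 identifiers counted. RNASeq libraries came from 2 cultures of mouse wild-type NSC and 2 cultures of NSC Bmi1over, whose genotype is given as STOPFloxBmi1;NestinCre, and H3K27me3 ChIPSeq was represented by 1 peak list for each of these conditions. NSC Bmi1over carry a Bmi1 transgene behind a floxed stop cassette, and the Cre that removes the cassette is driven by regulatory sequence of nestin, the product of the marker Nes. All cultures were derived from the cerebral hemispheres of E16.5 embryos and expanded with EGF, bFGF and B27, and the labels of the libraries did not say whether a culture was grown as neurospheres or as an adherent monolayer. Differences were therefore measured among expanded cultures and not in the embryonic tissue. The edgeR p-values rested on the spread between 2 cultures of a group, moderated by the spread over all genes (median prior degrees of freedom 6.54). Bmi1 itself, the Polycomb gene named by the genotype, read 133.3 and 123.5 CPM (read counts scaled by the TMM-normalised library size to a fixed total) in NSC replicates 1 and 2 and 118.6 and 112.6 CPM in NSC Bmi1over replicates 1 and 2. Its log2 fold change was −0.15 (SE 0.12, edgeR adjusted p = 0.463), so the count files did not show more Bmi1 RNA in the libraries labelled NSC Bmi1over, and that name stands below for the label.

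Radial glia are the stem cells of the embryonic cortex, which line the ventricle, extend a process to the surface of the brain, divide to give neurons and later generate glia. They are recognised by intermediate filament proteins, by a fatty acid binding protein and a glutamate transporter shared with astrocytes, and by SOX transcription factors that keep progenitors undifferentiated. Cells explanted from this tissue and grown with EGF and FGF retain many of these markers, and H3K27me3, the histone mark laid down by Polycomb repressive complexes, lies on many silent developmental genes in such cells.

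The 4 libraries held 29325893 and 24578802 reads counted on genes in NSC and 18112100 and 61353076 in NSC Bmi1over. The 10 markers rested on 84 (Prom1 in NSC Bmi1over replicate 1) to 175014 reads (Slc1a3 in NSC Bmi1over replicate 2) in a library, so counting error weighed most for Prom1 and Hopx. Reads that did not map made up 11.2% and 13.7% of NSC libraries and 16.2% and 17.6% of NSC Bmi1over libraries, and the part of this difference in the values below was not tested. Where levels of different genes were set side by side, CPM was divided by the length of all annotated exons of the gene in kb, and this level is called CPM per kb.

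All 10 markers were transcribed in every library, but over a range of 1434-fold between the highest and the lowest mean level per kb in NSC and 997.5-fold in NSC Bmi1over. Fabp7, Vim, Slc1a3, Nes and Sox2 formed an abundant set at or above percentile 98.8 of protein-coding genes by mean level per kb in NSC. Sox9 stood at percentile 93.1, Msi1 at 75.1, Sox1 at 69.7, Hopx at 62.0 and Prom1 at 49.3. The group of genes called stem cell markers therefore held some of the most abundant messages of these cultures together with a gene at the middle of the coding range.

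**Figure D1:**
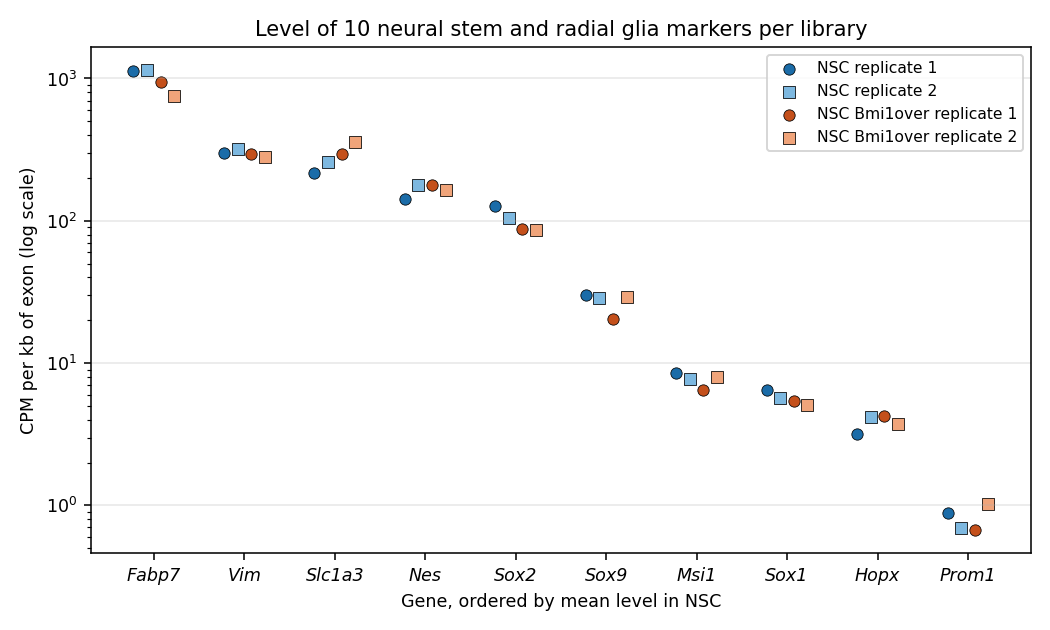
Level of the 10 markers in the 4 libraries, as CPM per kb of exon on a logarithmic vertical axis, with the genes ordered along the horizontal axis by mean level in NSC (circles, replicate 1; squares, replicate 2; blue, NSC; orange, NSC Bmi1over). Fabp7 lies between 754.5 and 1140 CPM per kb, Prom1 between 0.669 and 1.03 CPM per kb, and the ranges of neighbours in the order overlap for Vim with Slc1a3 and for Msi1 with Sox1.

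The intermediate filament genes were both abundant. Nes (ENSMUSG00000004891, chromosome 3, 87971078 to 87980451, plus strand, GRCm38), which encodes the filament protein nestin of dividing neural progenitors, measured 142.6 and 178.9 CPM per kb in NSC and 177.2 and 163.5 CPM per kb in NSC Bmi1over. Vim (ENSMUSG00000026728, chromosome 2, 13573927 to 13582826, plus strand) encodes vimentin, with which nestin assembles, and its level per kb was 300.3 and 320.5 CPM in NSC and 294.9 and 282.7 CPM in NSC Bmi1over. Vim exceeded Nes in each library, by a ratio of levels per kb between 1.66 and 2.11. Gfap, the filament gene of astrocytes, stood far below both, and the Vim level per kb was 1549 to 3629 times that of Gfap. These ratios are imprecise, since Gfap had 22 and 13 reads in NSC and 6 and 44 in NSC Bmi1over. The other filament genes among the relatives were scarce as well, with Synm at 0.529 to 0.691 and Nefl at 0.140 to 0.309 CPM per kb and Des below the filter on low counts.

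Fabp7 (ENSMUSG00000019874, chromosome 10, 57784881 to 57788450, plus strand) and Slc1a3 (ENSMUSG00000005360, chromosome 15, 8634124 to 8710764, minus strand) represent the glial character of radial glia. Fabp7 encodes the brain fatty acid binding protein and was the most abundant marker per kb in all 4 libraries, with 1129 and 1140 CPM per kb in NSC and 941.7 and 754.5 CPM per kb in NSC Bmi1over. Slc1a3, which encodes the glutamate transporter GLAST, measured 215.4 and 260.9 CPM per kb in NSC and 296.7 and 358.8 CPM per kb in NSC Bmi1over. Both exceeded their listed relatives in each library. Fabp7 exceeded Fabp5, another fatty acid binding protein of brain progenitors, by 6.97 to 10.9 times per kb, and Slc1a3 exceeded Slc1a2, the transporter of mature astrocytes, by 14.4 to 16.8 times per kb. The nearest relative of Slc1a3 in level was Slc1a4, a transporter of neutral amino acids, with 72.6 and 89.5 CPM per kb in NSC and 88.9 and 113 CPM per kb in NSC Bmi1over. The order of the 10 markers by level per kb was the same in both groups except that Slc1a3 stood above Vim in both NSC Bmi1over libraries and below it in both NSC libraries.

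The transcription factors differed widely in level. Sox2 (ENSMUSG00000074637, chromosome 3, 34650405 to 34652461, plus strand), a factor of the SoxB1 group that maintains progenitors, measured 126.5 and 105.2 CPM per kb in NSC and 86.9 and 86.3 CPM per kb in NSC Bmi1over. Sox1 (ENSMUSG00000096014, chromosome 8, 12395295 to 12400126, plus strand), of the same group and among the earliest neural markers, measured 6.51 and 5.66 CPM per kb in NSC and 5.44 and 5.06 CPM per kb in NSC Bmi1over. Sox2 was the leading SoxB1 gene in each library, 16.0 to 19.4 times above Sox1 and 4.20 to 4.85 times above Sox3, the third member of that group, per kb. Sox9 (ENSMUSG00000000567, chromosome 11, 112782224 to 112787760, plus strand) belongs to the SoxE group and takes part in the acquisition of stem cell and glial properties. It measured 30.3 and 28.8 CPM per kb in NSC and 20.3 and 29.3 CPM per kb in NSC Bmi1over. Its relative Sox8 was the more abundant gene, since Sox9 reached 0.412 to 0.550 times the Sox8 level per kb, and Sox10, the SoxE gene of the oligodendrocyte lineage, stayed between 0.0936 and 1.52 CPM per kb.

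Hopx (ENSMUSG00000059325, chromosome 5, 77086988 to 77115121, minus strand) encodes an atypical homeodomain protein that does not bind DNA and marks outer radial glia and some adult stem cells. It measured 3.20 and 4.15 CPM per kb in NSC and 4.26 and 3.71 CPM per kb in NSC Bmi1over. Its level was the least certain of the 10. The exons of Hopx overlap those of Hopxos, an annotated antisense gene, by 412 bp, and the library kit did not keep the strand. Reads in the overlap were left out of the unstranded counts of 153, 159, 113 and 321 in NSC replicates 1 and 2 and NSC Bmi1over replicates 1 and 2. If every read of the overlap belonged to Hopx, the counts would be 285, 285, 202 and 551, and the level per kb would lie between 5.95 and 7.60 CPM. Reads of the 2 genes could not be told apart there, and Hopxos outside the overlap held 1 to 4 reads a library.

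Msi1 (ENSMUSG00000054256, chromosome 5, 115429599 to 115455698, plus strand) encodes Musashi, an RNA-binding protein that represses translation of Numb, and measured 8.58 and 7.79 CPM per kb in NSC and 6.43 and 7.94 CPM per kb in NSC Bmi1over. Its paralogue Msi2 exceeded it 1.57 to 2.09 times per kb. Msi1 and Sox1 were neighbours in the order of levels, and their ranges over the 4 libraries overlapped. Prom1 (ENSMUSG00000029086, chromosome 5, 43993620 to 44102032, minus strand) encodes the surface glycoprotein CD133 of apical membrane protrusions and was the lowest of the 10 in each library, with 0.888 and 0.695 CPM per kb in NSC and 0.669 and 1.03 CPM per kb in NSC Bmi1over. It overlaps the antisense gene Gm16401 by 424 bp of exon, and at most 16 reads of any library lay on Gm16401 with the overlap included.

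No marker passed the threshold between NSC Bmi1over and NSC. With the edgeR quasi-likelihood F-test, 0 of the 10 markers had an adjusted p under 0.05, where 2.15% of the 15521 tested genes did, and all 10 had passed the filter on low counts. At an unadjusted p under 0.05 the count was 1 of 10, Sox2, beside 24.2% of all tested genes. DESeq2 also called 0 of the 10, beside 1426 of 14154 genes. The log2 fold change was below 0 for 6 markers and above 0 for 4, with a median of −0.14 where the median of all tested genes was −0.014. With scaling by library size alone 9 were below 0, with a median of −0.29 where all tested genes had −0.165. For 5 markers the CPM of the groups did not overlap, which was the case for 59% of tested genes, and for 4 of them, Sox2, Sox1, Vim and Fabp7, the NSC Bmi1over libraries were the lower ones, as for 30% of tested genes. The shares of markers with groups that did not overlap were near those of all genes. In the test, 2.03% of tested genes were called higher and 0.122% lower in NSC Bmi1over, against 0 of the 10 markers either way. In a comparison of 2 cultures with 2, an exact permutation test of a single gene could not give a two-sided p below 0.333.

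**Figure D2:**
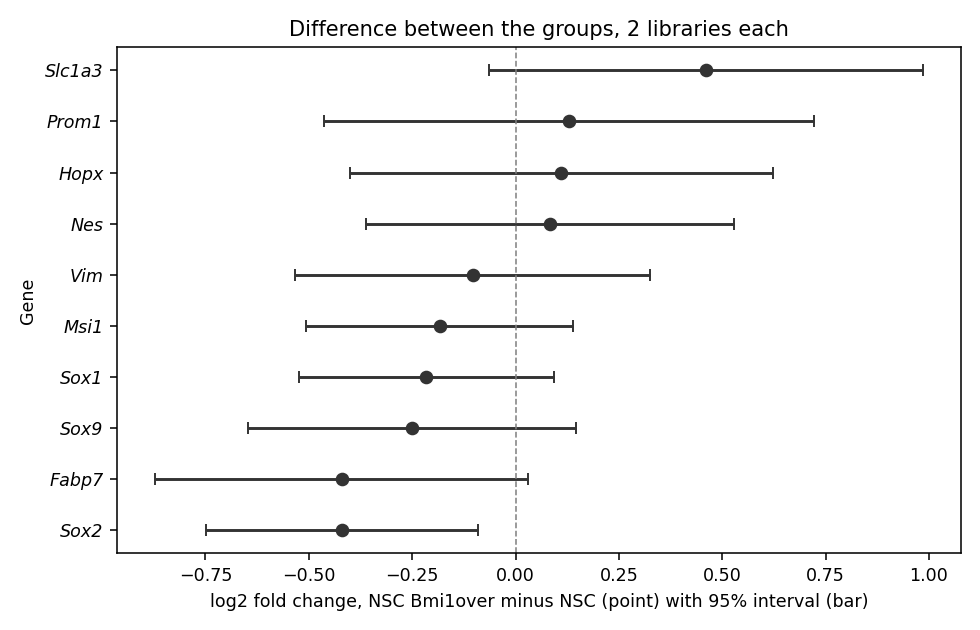
Log2 fold change of each marker, NSC Bmi1over minus NSC, from edgeR (point) with its 95% confidence interval (bar) on the horizontal axis, 2 libraries in each group and 1 gene per line. The interval of Sox2 lies below 0 (−0.75 to −0.09, adjusted p = 0.129) and the other 9 intervals include 0.

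Sox2 gave the smallest p of the 10. Its normalised counts were 260.3 and 216.4 CPM in NSC and 178.7 and 177.5 CPM in NSC Bmi1over. Both NSC Bmi1over libraries lay below both NSC libraries and were nearly equal. The log2 fold change was −0.42 (SE 0.14, 95% interval −0.75 to −0.09), with an unadjusted p of 0.0182 and an adjusted p of 0.129 from edgeR, which did not pass the threshold. Sox1 showed the same order of libraries on a smaller scale, with 31.4 and 27.3 CPM in NSC and 26.3 and 24.5 CPM in NSC Bmi1over and a log2 fold change of −0.22 (SE 0.14, edgeR adjusted p = 0.349), which was −0.11 without NSC replicate 1.

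Fabp7 measured 1411 and 1425 CPM in NSC against 1177 and 943.2 CPM in NSC Bmi1over. The NSC libraries were close to each other, and the NSC Bmi1over libraries were lower and further apart. Its log2 fold change was −0.42 (SE 0.20, interval −0.87 to 0.03, edgeR adjusted p = 0.234), and −0.27 without NSC Bmi1over replicate 2. Slc1a3 had the opposite sign and was the only marker with both NSC Bmi1over libraries above both NSC libraries, at 1839 and 2228 CPM in NSC and 2533 and 3063 CPM in NSC Bmi1over. The spread within each group was wider than the gap between the groups, and the log2 fold change of 0.46 (SE 0.23, interval −0.06 to 0.98, edgeR adjusted p = 0.257) did not pass. Leaving out 1 library gave −0.55 to −0.28 for Sox2 and 0.32 to 0.60 for Slc1a3. In bulk cultures, fewer cells of a type and less RNA per cell cannot be told apart.

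The filament genes and the remaining markers had smaller differences. Nes measured 915.1 and 1148 CPM in NSC and 1137 and 1049 CPM in NSC Bmi1over, so the groups overlapped (log2 fold change 0.084, SE 0.19, interval −0.36 to 0.53, edgeR adjusted p = 0.81). Its sign was not stable, since the log2 fold change was −0.061 with scaling by library size alone. Vim varied least over the 4 libraries, with a ratio of 1.13 between the highest and lowest CPM, and read 1424 and 1520 CPM in NSC and 1399 and 1341 CPM in NSC Bmi1over (log2 fold change −0.10, SE 0.19, edgeR adjusted p = 0.754, and −0.061 without NSC replicate 2). Sox9 was carried by 1 library: NSC Bmi1over replicate 1 measured 84.0 CPM where NSC had 125.4 and 119.2 CPM and NSC Bmi1over replicate 2 had 121.0 CPM. The Sox9 log2 fold change was −0.25 (SE 0.17, edgeR adjusted p = 0.395), and −0.019 without NSC Bmi1over replicate 1. Msi1 likewise had its lowest value in that library, with 49.8 and 45.2 CPM in NSC and 37.3 and 46.0 CPM in NSC Bmi1over, and the groups overlapped (log2 fold change −0.18, SE 0.14, edgeR adjusted p = 0.441). Its log2 fold change was −0.049 without NSC Bmi1over replicate 1 and −0.35 without NSC Bmi1over replicate 2.

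The 2 scarcest markers, Prom1 and Hopx, had overlapping groups. Prom1 measured 6.37 and 4.98 CPM in NSC and 4.80 and 7.40 CPM in NSC Bmi1over, so that the lowest and the highest library both belonged to NSC Bmi1over (log2 fold change 0.13, SE 0.26, interval −0.46 to 0.72, edgeR adjusted p = 0.778). Hopx measured 4.85 and 6.29 CPM in NSC and 6.45 and 5.62 CPM in NSC Bmi1over (log2 fold change 0.11, SE 0.22, interval −0.40 to 0.62, edgeR adjusted p = 0.78). With library size alone the log2 fold change became −0.031 for Prom1 and −0.037 for Hopx, so no direction was given for either. The intervals were wide for all 10 markers, and a change of up to 0.72 log2 units in Prom1 or of −0.87 in Fabp7 lay inside them. A difference that missed the threshold was thus not shown to be absent.

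A wider list of 28 other neural stem and radial glia genes held no call either. All 28 were tested with edgeR and 0 passed, while 10 of 28 had an unadjusted p under 0.05, beside 24.2% of all tested genes. Of the 28, 18 had a log2 fold change below 0 and 10 above, with a median of −0.23, and for 14 of them both NSC Bmi1over libraries were lower than both NSC libraries, beside 30% of all tested genes. These counts are a description of the list and were not tested against other genes. The 3 most abundant per kb over all libraries were Ptprz1, a receptor phosphatase of radial glia (224, 242, 248 and 260 CPM per kb in NSC replicates 1 and 2 and NSC Bmi1over replicates 1 and 2), Dbi and Tnc, which encodes the extracellular matrix protein tenascin. Their means over the 4 libraries, 243.7, 211.3 and 190.3 CPM per kb, were between those of Nes and Vim. The 3 scarcest were Gli3, an effector of hedgehog signalling, Id4, an inhibitor of basic helix-loop-helix factors, and Fut4, with means of 2.18, 0.612 and 0.398 CPM per kb.

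The call on this list depended on the tool. DESeq2 called 4 of the 28, beside 1426 of all 14154 genes with an adjusted p. Among the 4 were Fgfr3, Nr2e1 and Sox3, each with a log2 fold change below 0, and these were named after their values were seen. In edgeR the log2 fold change was −0.88 for Fgfr3, a receptor of FGF (adjusted p = 0.057), −0.54 for Nr2e1, an orphan nuclear receptor that maintains adult neural stem cells (adjusted p = 0.069), and −0.52 for Sox3 (adjusted p = 0.086). These 3 lay just above the threshold. Among the 15 relatives by protein family 14 were tested with edgeR, 0 passed and 4 had an unadjusted p under 0.05 (24.2% of all tested genes), with 9 above 0 and 5 below and a median log2 fold change of 0.11. Sox8 (log2 fold change −0.46, adjusted p = 0.104), Sox3 and Msi2 (−0.39, adjusted p = 0.122) shared the sign of their relatives among the markers. No direction was given for Sox10 (log2 fold change 0.43, SE 0.75, adjusted p = 0.742), which had 5 and 265 reads in NSC Bmi1over replicates 1 and 2. The call on Sox8 depended on the tool, with an adjusted p of 0.0334 from DESeq2 and, in edgeR, of 0.0498 with library size alone and 0.0255 with no filter. Slc1a2 had a log2 fold change of 0.39 (adjusted p = 0.223), which was 0.14 without NSC Bmi1over replicate 2 and 0.59 (adjusted p = 0.0364) without NSC Bmi1over replicate 1. Fabp5 stood at 0.020.

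**Figure D3:**
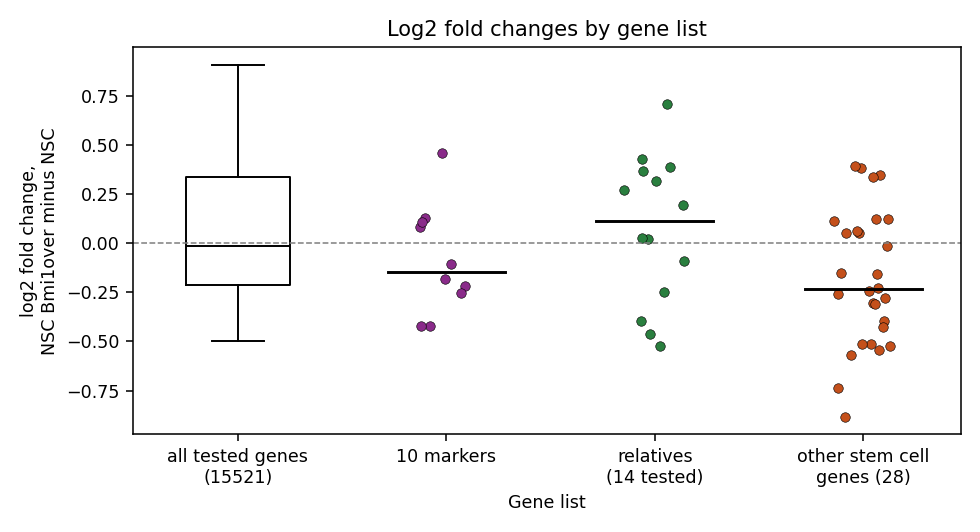
Log2 fold change, NSC Bmi1over minus NSC, on the vertical axis for the 10 markers, 14 tested relatives and 28 other neural stem and radial glia genes (points; the horizontal bar is the median, and horizontal scatter has no meaning), beside all 15521 tested genes (box, quartiles and median; whiskers, percentiles 5 and 95). The medians are −0.14, 0.11 and −0.23, against −0.014 for all tested genes, and no point of the 3 lists passed the threshold.

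Markers of other cell types were measured in the same libraries. Genes of the oligodendrocyte lineage were abundant in both groups, with a summed level of 2481 to 2609 CPM in NSC and 2486 to 2565 CPM in NSC Bmi1over, led by Olig1 and Olig2, and 0 of 7 tested passed. Astrocyte markers summed to 193.3 to 253.5 CPM in NSC and 125.0 to 137.1 CPM in NSC Bmi1over, so the sums did not overlap. Aldh1l1 and Aldoc led the sum, and Aldoc measured 113.0 and 82.8 CPM in NSC and 52.4 and 59.9 CPM in NSC Bmi1over (log2 fold change −0.80, edgeR adjusted p = 0.051). Single genes had groups that did not overlap in 2 of 5 tested, beside 59% of all tested genes. The log2 fold change was below 0 for 4 and above 0 for 1, with a median of −0.29. Of 5 tested, 1 passed: Aldh1l1, a folate enzyme of astrocytes and radial glia, fell from 122.2 and 94.2 CPM in NSC to 66.0 and 53.3 CPM in NSC Bmi1over (log2 fold change −0.86, SE 0.17, edgeR adjusted p = 0.044). The call was lost without NSC replicate 1 (−0.66, adjusted p = 0.124) and without NSC Bmi1over replicate 2 (−0.71, adjusted p = 0.0897). Gfap, the defining gene of that list, stayed at 0.343 to 0.770 CPM. The part of the difference in Aldh1l1 and Aldoc in the values of Fabp7 and Sox2 was not tested, and Slc1a3, also a gene of astrocytes, had the opposite sign.

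Neuronal markers summed to 1027 to 1036 CPM in NSC and 1014 to 1110 CPM in NSC Bmi1over, with Map2 highest, and 1 of 7 tested passed, with 3 above 0, 4 below and a median log2 fold change of −0.075. Syt1, a calcium sensor of synaptic vesicles, rose from 9.13 and 27.2 CPM to 66.5 and 95.8 CPM (log2 fold change 2.18, SE 0.41, edgeR adjusted p = 0.043), a call that was lost without NSC Bmi1over replicate 2 (log2 fold change 1.89, adjusted p = 0.0713) and with the size factors of DESeq2 (adjusted p = 0.0517). Its log2 fold change was 1.58 without NSC replicate 1 and 3.15 without NSC replicate 2. Foxj1, the factor of multiciliated cells, accounted for nearly all of an ependymal sum of 9.66 to 13.9 CPM, and Kdr led an endothelial sum of 3.30 to 5.28 CPM. Intermediate progenitor, mesenchymal, microglial and erythroid lists each summed to at most 1.57 CPM in any library.

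H3K27me3 was then compared at the promoters, defined as 5 kb on each side of any annotated start site. Of the 10 markers, 1 had a peak in the NSC list and 0 had a peak in the NSC Bmi1over list, where 8.83% of 22028 protein-coding genes had one in NSC and 4.38% in NSC Bmi1over. The marked gene was Prom1, the scarcest of the 10. With 1 peak list per condition there was no replicate and no test. The lists do not give the depth of their libraries, but the methods of the study state more aligned reads for its deeper NSC library than for either NSC Bmi1over library. Depth and genotype cannot be told apart here, neither in the shares of marked genes nor at Prom1. Each of the other 9 markers had no peak over its promoters or gene body in either list.

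The peaks at Prom1 ranged from the lower part to the middle of the NSC list in strength. In NSC, 3 peaks of together 828 bp lay around the most upstream start sites. The first, chr5:44101628-44101827, was 200 bp long and lay inside the gene over an annotated start site, enriched 3.79-fold (−log10 q 2.25). The second, chr5:44102053-44102466, spanned 414 bp from 21 to 434 bp upstream of the gene and was enriched 4.06-fold (−log10 q 2.75). The third, chr5:44102784-44102997, lay 752 to 965 bp upstream and was enriched 4.14-fold (−log10 q 2.87). The median fold enrichment of the NSC list was 4.06 and the median length 355 bp. Of all NSC peaks, 27% were weaker than the first, 50.1% weaker than the second and 55.9% weaker than the third. The second peak was longer than the median, the third shorter, and the first had the shortest length in the list. A further peak, chr5:44111067-44111369, lay 9035 to 9337 bp upstream, outside the window, with a fold enrichment of 3.58.

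In NSC Bmi1over the nearest peak to Prom1 was 2237979 bp away. The smallest fold enrichment in the NSC Bmi1over list was 4.03 and in the NSC list 3.52. The first Prom1 peak thus had a lower fold enrichment than any peak of the NSC Bmi1over list, whereas the second and the third were above its smallest value. By −log10 q, each of these peaks was above the smallest value of the NSC Bmi1over list, 1.96. Whether the mark itself differed at Prom1 was not testable from these lists. RNA of Prom1 did not differ between the groups beyond the spread of the cultures.

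**Figure D4:**
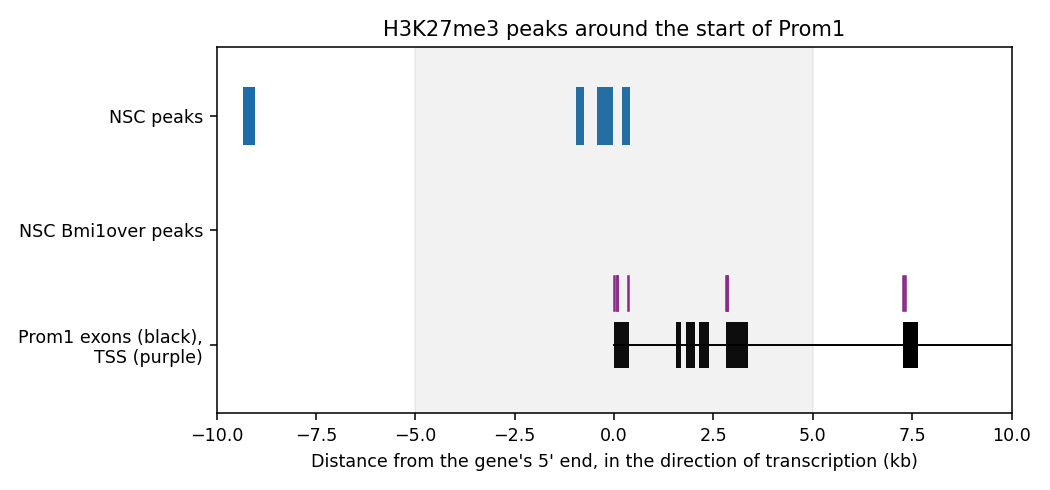
H3K27me3 peaks of the NSC list (blue) and the NSC Bmi1over list (empty line) around Prom1, with exons in black and annotated start sites in purple, against distance in kb from the gene's 5′ end in the direction of transcription; the grey band is the 5 kb window around that end. The 3 NSC peaks lie between 965 bp upstream of the 5′ end and the first exons, 1 more lies beyond 9035 bp upstream, and the NSC Bmi1over line holds no peak.

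The Prom1 promoter is shown because it is the only marker promoter with a peak, beside the promoters of the 3 most abundant markers, which had none. Sequences are from RefSeq on GRCm38, written 5′ to 3′ on the strand of the gene, with CG dinucleotides in capitals. Windows were found for 8 of the 10 markers. The windows are chr5:44101687-44101986 (minus strand) for Prom1, chr10:57784673-57784972 (plus) for Fabp7, chr2:13574061-13574360 (plus) for Vim and chr15:8710758-8711057 (minus) for Slc1a3.
Prom1: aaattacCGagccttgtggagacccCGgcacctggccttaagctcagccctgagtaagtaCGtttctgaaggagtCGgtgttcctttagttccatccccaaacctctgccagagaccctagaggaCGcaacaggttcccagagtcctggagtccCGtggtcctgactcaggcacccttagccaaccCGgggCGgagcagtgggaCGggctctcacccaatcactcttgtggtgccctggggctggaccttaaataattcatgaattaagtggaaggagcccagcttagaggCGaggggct
Fabp7: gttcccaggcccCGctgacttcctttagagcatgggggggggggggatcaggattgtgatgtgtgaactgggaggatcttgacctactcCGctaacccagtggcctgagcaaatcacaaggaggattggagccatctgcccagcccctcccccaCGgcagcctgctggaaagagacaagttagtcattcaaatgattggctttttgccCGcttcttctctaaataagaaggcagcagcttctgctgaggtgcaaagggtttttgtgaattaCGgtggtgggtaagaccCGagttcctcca
Vim: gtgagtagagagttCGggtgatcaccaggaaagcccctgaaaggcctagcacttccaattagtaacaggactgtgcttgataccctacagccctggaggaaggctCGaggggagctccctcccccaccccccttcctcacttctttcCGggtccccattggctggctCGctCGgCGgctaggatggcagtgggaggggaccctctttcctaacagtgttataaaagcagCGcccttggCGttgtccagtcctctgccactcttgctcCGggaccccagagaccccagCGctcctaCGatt
Slc1a3: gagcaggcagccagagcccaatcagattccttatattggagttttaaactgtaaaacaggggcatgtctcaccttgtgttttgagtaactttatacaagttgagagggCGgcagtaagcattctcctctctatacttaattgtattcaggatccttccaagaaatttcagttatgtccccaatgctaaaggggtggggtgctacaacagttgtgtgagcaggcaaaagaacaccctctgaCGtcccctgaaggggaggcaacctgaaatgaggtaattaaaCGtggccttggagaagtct

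The last 141 bases of the Prom1 window lay inside the first NSC peak. Prom1 held 10 CG dinucleotides in its window, Vim 11, Fabp7 6 and Slc1a3 3, where the median of 32851 RefSeq windows was 7, so the marked promoter did not stand apart from the unmarked ones in this count. A second RefSeq window of Prom1, chr5:44094719-44095018, held 4 CG and no base of a peak. The windows of Sox1 with 37 and Sox2 with 27 CG were the richest of the 8, and neither gene had a peak. The letters ACAAAG, a SOX motif, searched on both strands, occurred only in the Sox2 window among the markers and in 18.7% of all windows. ACAATG occurred in none of the markers' windows and in 12.6% of all. The octamer ATGCAAAT occurred in the Sox1 window and in 1.74% of all windows. TGGGAA, a motif of the Notch effector RBPJ, occurred in the windows of Sox1, Fabp7 and Prom1 and in 25.6% of all. These matches describe the letters of the windows only.

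Above 0.1 CPM per kb, the share of marked genes was lower in each higher class of RNA level, and 9 of the 10 markers lay in the classes above that of Prom1. Of the 8534 protein-coding genes under 0.1 CPM per kb in NSC, which include no marker, 11.4% had an NSC promoter peak and 6.71% an NSC Bmi1over peak. Of 2522 protein-coding genes between 0.1 and 1 CPM per kb in NSC, the class of Prom1, 18.2% had an NSC promoter peak and 8.01% an NSC Bmi1over peak. Of 6121 genes between 1 and 10 CPM per kb, the class of Msi1, Sox1 and Hopx, the shares were 6.36% and 2.40%. Of 4349 genes between 10 and 100 CPM per kb, the class of Sox9, they were 2.48% and 0.920%. Among the 315 genes at or above 100 CPM per kb, which include the other 5 markers, 7 genes or 2.22% had an NSC peak and 0 had an NSC Bmi1over peak. An absence of peaks from 9 markers was thus the usual state of genes at their levels.

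**Figure D5:**
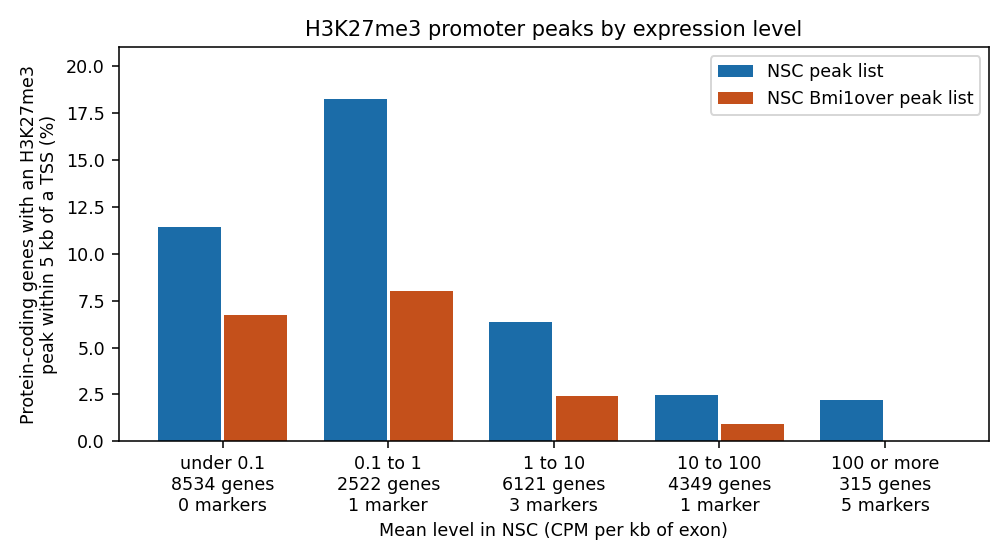
Percentage of protein-coding genes with an H3K27me3 peak within 5 kb of a start site (vertical axis, from 0) in 5 classes of mean RNA level in NSC (CPM per kb, horizontal axis), for the NSC list (blue bars) and the NSC Bmi1over list (orange bars). The share is highest, 18.2%, in the class of Prom1 and 2.22% in the class that holds 5 of the markers.

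The distance to the nearest peak set the unmarked markers apart from each other. Sox1 lay closest, 84375 bp from an NSC peak and 260731 bp from an NSC Bmi1over peak, and Nes followed with 143712 and 172573 bp. Vim lay 212986 and 213709 bp away, Fabp7 242270 and 349570 bp and Msi1 298190 and 1150618 bp. Slc1a3 was 823231 bp from an NSC peak, Sox9 1281758 bp, Sox2 1411774 bp and Hopx 2017827 bp. Protein-coding genes had a median distance of 239531 bp to an NSC peak and of 550282 bp to an NSC Bmi1over peak, so 3 of the 9 unmarked markers were closer than the NSC median and 6 further.

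Some other progenitor genes carried the mark. Of the 28 other neural stem and radial glia genes, 4 had promoter peaks in both lists: Hes1, a Notch target, Id4, and the cortical patterning factors Lhx2 and Emx2. The share over all protein-coding genes was 8.83% in the NSC list and 4.38% in the NSC Bmi1over list, and no test against it was made. Peaks covered 15604 bp around Lhx2 in NSC and 4601 bp in NSC Bmi1over, and 9745 and 2521 bp around Emx2, against the 828 bp at Prom1. RNA of each of these genes was also counted, with Hes1 at 16.8 to 21.9, Lhx2 at 9.51 to 13.4, Emx2 at 5.06 to 5.18 and Id4 at 0.327 to 0.823 CPM per kb over the 4 libraries. Whether mark and RNA came from the same cells was not tested. Of the 15 relatives only Nefl, a filament gene of neurons, had promoter peaks, in both lists. All 4 intermediate progenitor genes, Eomes, Neurog1, Neurog2 and Neurod1, whose RNA summed to at most 1.57 CPM, were marked in both lists over 3205 to 9796 bp each.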

How the data were processed

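RNASeq of 4 libraries and H3K27me3 ChIPSeq peak lists of 2 conditions were analysed. Per the study's methods, the authors trimmed reads with Trim Galore and aligned them to mm10 with STAR. The deposited files hold raw read counts per gene, and the unstranded column (number 2) was used. For ChIPSeq the authors aligned with Bowtie2 2.3.4, discarded multi-mapped reads and called broad peaks with MACS2 on 1 library per condition, the weaker replicate having been set aside. The deposited peak lists give a fold enrichment (a ratio), −log10 p and −log10 q values, and a display score, and the last was not used. The other samples of the study were not analysed here.

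Of the identifiers, 50462 of 50686 matched GENCODE release 21 of mouse (GRCm38), which gave names and exon lengths. Counts were normalised by TMM, filtered with filterByExpr (15521 genes) and tested with the edgeR 4.0.16 quasi-likelihood F-test (R 4.3.3), with Benjamini-Hochberg adjustment over all tested genes and a threshold of 0.05, after a check of the code on simulated counts. The biological coefficient of variation was 12.9%. A promoter peak overlapped by 1 bp or more the 5 kb on either side of a start site. DESeq2 1.42.0 and the other alternatives are given in the closing section. The genes described, the gene lists and the promoters to print followed rules set with earlier results of these data known. Named genes were the markers, their relatives, called genes, the highest or lowest of a list, and genes overlapping a marker. A planned comparison of protein sequences was not made.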

Additional observations from a re-analysis of the deposited data

How the results depend on the processing

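Under 13 alternatives for the RNASeq test, 0 of the 10 markers were called in 12. With a replicate block, 3 were called by edgeR, beside 3459 of all 15521 tested genes. They were Sox2 (log2 fold change −0.41, adjusted p = 0.0102), Fabp7 (−0.43, 0.0195) and Slc1a3 (0.46, 0.0116). The block pairs cultures by number only: same-numbered cultures deviated together with r = 0.272 across 15521 genes, which are not independent, with 2 pairs and no label of a shared day, so pairing was not established. Of 130 values of the markers' log2 fold change, 7 changed sign, none of them past the threshold. With library size alone they were −0.061 for Nes, −0.031 for Prom1 and −0.037 for Hopx. Leaving out 1 library gave −0.072 (without NSC replicate 1) to 0.25 for Nes, −0.069 (without NSC replicate 1) to 0.30 for Hopx, and −0.25 (without NSC Bmi1over replicate 2) to 0.37 for Prom1, with −0.044 without NSC replicate 2.

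Over all genes, 15521 were tested in the main fit, with library size alone and with the replicate block. DESeq2 gave an adjusted p for 14154, and 28541 were tested with no filter and 14645 after thinning to the shallowest library. In the main fit 334 were called, 94.3% of them higher in NSC Bmi1over, and 481 were called after thinning. The count was 1426 with DESeq2, 537 with library size alone (64.4% higher, median log2 fold change −0.165), 2356 with no filter (80.3% higher), 3459 with the replicate block (70.3% higher) and 176 to 2546 when 1 library was left out. The lowest was without NSC replicate 1 and the highest without NSC Bmi1over replicate 1 (76.7% higher), with 1461 without NSC replicate 2 and 230 without NSC Bmi1over replicate 2 (79.6% higher). Of the 28 other stem cell genes, called in 0, the counts were 4 with DESeq2, 4 with library size alone, 7 with no filter, 1 after thinning to the shallowest library, 12 with the replicate block and 0 to 5 when 1 library was left out, the 5 without NSC replicate 2 and 4 without NSC Bmi1over replicate 1.

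The Prom1 peaks in NSC were lost, leaving 0 markers, when peaks needed a fold enrichment of 5, a −log10 q of 3 or a length of 1000 bp. Under these limits 675, 1264 and 858 protein-coding genes remained in NSC of 1945, and in NSC Bmi1over 557 with the fold limit and 329 with the length limit of 964. Narrower and wider windows, another overlap and 1 start site per gene kept Prom1 as the marked gene. The cause of these shifts was not tested. The fewest reads behind a marker in a library were 84, for Prom1, and the intervals rested on 2 cultures per group and on the spread over all genes.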
